A study of Scyliorhinus canicula with 3 samples.

Results

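The nuclei described here carried RNA of prss56, which encodes a secreted serine protease (chromosome 13, 124932518 to 125009595, assembly sScyCan1.1). They came from a single-nucleus RNA sequencing study of the retina of the small-spotted catshark Scyliorhinus canicula. A nucleus was taken as a prss56 nucleus when it lay within the UMI, feature and mitochondrial limits of the study's methods and held at least 2 unique molecular identifiers (UMIs, 1 per captured RNA molecule) of this gene. There were 180 of them among 20632 nuclei. Library 1 held 45 of 6053 (0.743%, exact 95% interval 0.543 to 0.994), library 2 held 52 of 4425 (1.18%, 0.879 to 1.54) and library 3 held 83 of 10154 (0.817%, 0.652 to 1.01). The mean share was 0.912% ± 0.231 (SD, n = 3 libraries), and these intervals cover counting error only.

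Each library was made from the retina of 1 female juvenile, with total lengths of 11.0, 10.5 and 11.1 cm for libraries 1, 2 and 3. All animals were untreated and of 1 condition, so the comparisons below are between classes of nuclei of the same animals. The prss56 nuclei were set against all other nuclei, against nuclei with the markers of Mueller glia, and against other nuclei with RNA of a proliferation marker. Whole retinas were frozen, so a nucleus carries no record of its place in the eye.

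In fishes and amphibians the retina goes on growing after hatching from a ring of dividing progenitors at its edge, the ciliary marginal zone. Mueller glia, the radial glia that span the retina, share many genes with these progenitors and can act as a source of new neurons in teleosts. PRSS56 is known in humans and mice for its part in the control of eye length, and in the mouse retina it is made by Mueller glia. Retinal homeobox factors such as rx3, Notch and Wnt signals, hedgehog signals and D-type cyclins are among the genes known from the retinal progenitors of other vertebrates.

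The libraries held between 50691314 and 73310348 UMIs in all, and 4425 to 10154 nuclei lay within the limits. Between 1 and 16 barcodes were shared by any pair of libraries, 1 of which belonged to a prss56 nucleus in 1 library, and none was a prss56 nucleus in both. Library 1 differed from the others among the remaining nuclei, where 5 epithelial markers summed to 799 counts per 1000000 UMIs (CPM) against 19.9 and 10.7 CPM in libraries 2 and 3. In the prss56 nuclei these markers summed to 70.8, 23.1 and 21.6 CPM in libraries 1, 2 and 3. Library 2 differed in 4 lens markers, which summed to 5.80, 250 and 12.8 CPM in the remaining nuclei of libraries 1, 2 and 3. In the prss56 nuclei these lens markers summed to 0, 115 and 8.62 CPM.

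The prss56 nuclei were deeper than the rest. Their median UMI totals were 6236, 4704 and 3633 in libraries 1, 2 and 3, against 3390, 2164 and 2016 in all other nuclei. A rule that asks for 2 UMIs of a gene finds more of its nuclei among deep ones, and the part of depth in each comparison is given where it was measured. Of the 180 nuclei, 0, 2 and 4 were among the 4% of nuclei with the highest doublet score of their library.

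The level of prss56 chose these nuclei and is given without a test. It was 809, 844 and 849 CPM in the prss56 nuclei of libraries 1, 2 and 3, against 2.25, 4.22 and 4.47 CPM in all other nuclei. Near-empty droplets, the barcodes with at least 200 features whose totals lay at or under the library's median, held 4.02, 2.23 and 5.03 CPM. All other nuclei hold at most 1 UMI of prss56 each by the rule, which keeps their level low. That level was above the near-empty droplets in library 2 and below them in libraries 1 and 3. The median nucleus held 3, 3 and 4 UMIs of prss56, and the highest held 41, 26 and 18.

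At the threshold itself, 11, 23 and 22 nuclei had exactly 2 UMIs of prss56 and lay just inside, and 62, 68 and 145 nuclei had 1 UMI and lay just outside. Nuclei with 2 UMIs had 614, 335 and 86.1 CPM of smoc1, a secreted modulator of BMP signals, and those with 1 UMI had 412, 115 and 84.1 CPM. The hedgehog effector gli2a was at 525, 244 and 184 CPM with 2 UMIs and at 211, 145 and 57.6 CPM with 1 UMI. In nuclei with 0 UMIs smoc1 was at 29.9, 31.5 and 20.9 CPM and gli2a at 37.2, 37.2 and 26.1 CPM. Nuclei just outside the rule therefore had more of both genes than nuclei with 0 UMIs in every library.

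**Figure D1:**
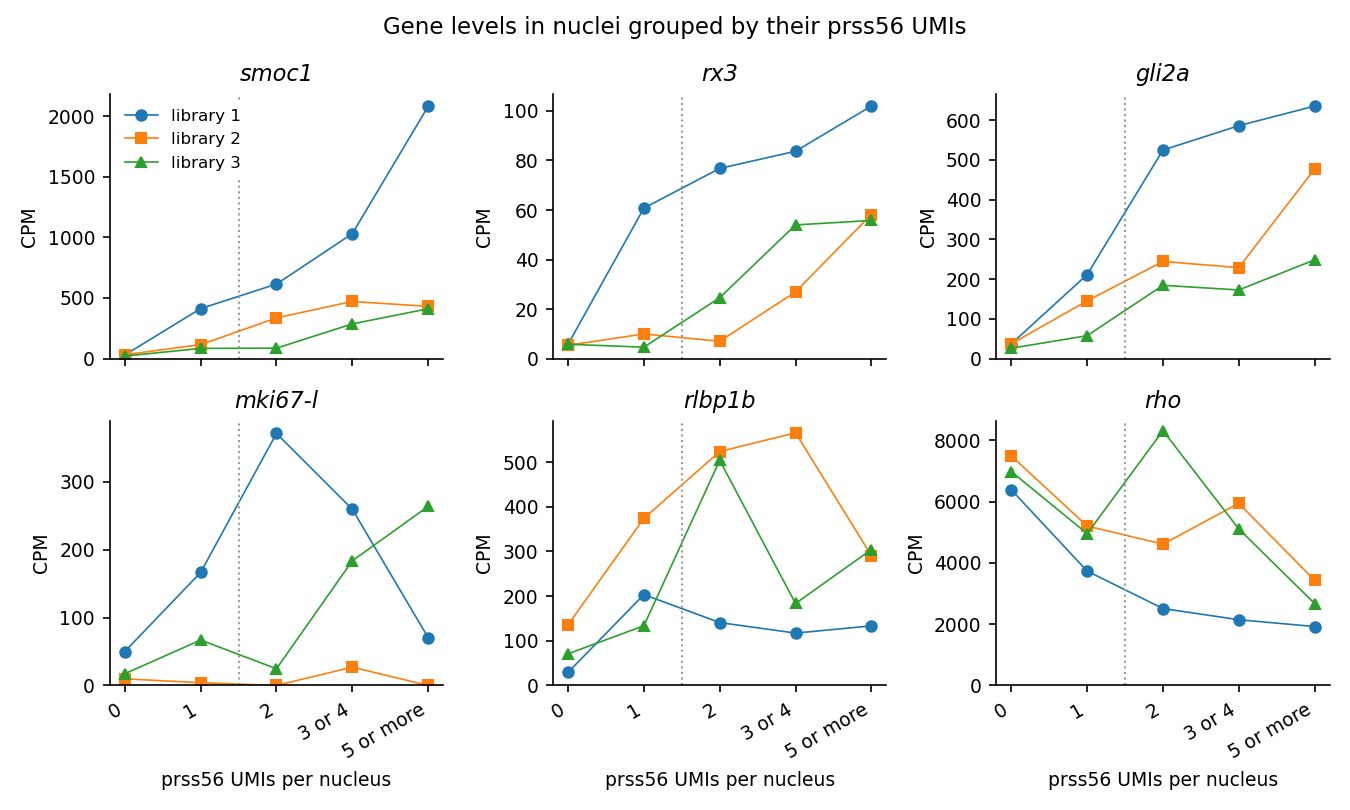
Level in counts per 1000000 UMIs (vertical axes, linear) of 6 genes in nuclei grouped by their number of prss56 UMIs (horizontal axes: 0, 1, 2, 3 or 4, 5 or more), with 1 line per library and a dotted line at the rule's threshold. In nuclei with 5 or more UMIs smoc1 reached 2079, 430 and 411 CPM in libraries 1, 2 and 3, and in nuclei with 0 UMIs it was at 29.9, 31.5 and 20.9 CPM; mki67-l in library 2 was at 0 CPM with 2 UMIs, 26.9 CPM with 3 or 4 UMIs and 0 CPM with 5 or more.

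The label of these nuclei as progenitors came with prss56 and rx3 (chromosome 3, 58653733 to 58664587), a homeobox factor of the early eye field and of the retinal margin. Both markers were chosen with earlier results of these data known. The values of rx3 are therefore described here and are no independent check of the label. At least 1 UMI of rx3 was found in 17, 7 and 15 of the prss56 nuclei, which are 37.8%, 13.5% and 18.1% of them in libraries 1, 2 and 3, against 2.05%, 1.60% and 1.44% of all other nuclei. With every nucleus thinned at random to 1000 UMIs the shares were 15.6%, 7.69% and 6.10%, against 0.599%, 0.423% and 0.591%. Rod-like nuclei, taken as those with at least 2 UMIs of the rod phosphodiesterase pde6a, should lack rx3 and gave 0.712%, 0.164% and 0.418% after thinning. Their median depths were 3776, 3597 and 3215 UMIs. The share with rx3 RNA was higher in the prss56 nuclei than in the rod-like nuclei in all 3 libraries, and 3 pairs cannot give an exact two-sided p under 0.25. Other nuclei with the markers of Mueller glia had rx3 RNA in 15.5%, 8.56% and 6.96% with all UMIs. In library 2 the exact interval of the prss56 nuclei, 5.59 to 25.8, held this glial share. After thinning the glial nuclei had 0%, 0.613% and 1.17% (0 of 58, 2 of 326 and 4 of 343), and the prss56 shares rest on 7 of 45, 4 of 52 and 5 of 82 nuclei. The glial shares lay below the exact intervals of the prss56 nuclei, which began at 6.49%, 2.14% and 2.01%. The exact intervals of the glial nuclei reached 6.16%, 2.20% and 2.96%, so the intervals of the 2 classes overlapped in libraries 2 and 3.

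The markers fit that label for some of these nuclei only. Of the 180 nuclei, 39 had a UMI of rx3, 58 had a UMI of mki67-l or pcna, and 50 had at least 2 UMIs each of rlbp1b and glul, the Mueller glia rule used below. The groups with rx3 and with the glial markers shared 2 nuclei, and 62 nuclei met none of these 3 criteria. The share that met the Mueller glia rule differed between libraries, with 8.89%, 46.2% and 26.5% in libraries 1, 2 and 3, against 0.965%, 7.48% and 3.43% of all other nuclei. They are called prss56 nuclei here, because no single class of cells covers them.

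Against all other nuclei, the genes that rose in prss56 nuclei included smoc1, aldh1a3, lfng and gli2a. UMIs were summed per library and class and 17750 genes were tested with edgeR's quasi-likelihood test with the library as a block. A gene was called when its p-value, Benjamini-Hochberg adjusted over all genes tested, was under 0.05 and its log2 fold change was at least 1 in size. Called higher were 596 genes (3.36%) and called lower were 664 (3.74%), together 7.1%, and the median log2 fold change of all genes was -0.12. Within the 10th to 90th percentile of the UMI totals of prss56 nuclei, 558 genes were called higher and 737 lower. Without library 1 edgeR called 475 higher and 311 lower, without library 2 650 and 1168, and without the block 91 and 3. When barcodes above the upper limits were kept, a setting chosen after the data were seen, it called 0 higher and 2 lower (1791 had an unadjusted p under 0.05).

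The genes with a symbol that led among those with at least 100 CPM in prss56 nuclei and at least 20 UMIs in each library are given first. In prss56 nuclei smoc1 (chromosome 2, 109817322 to 110105503) was at 1341, 396 and 304 CPM in libraries 1, 2 and 3, against 35.1, 34.1 and 22.6 CPM in all other nuclei. The log2 fold change was 4.06 ± 0.32 (SE, adjusted p = 2.78e-06, edgeR's quasi-likelihood test with Benjamini-Hochberg adjustment). The groups did not overlap, and library 1 was the highest of the prss56 nuclei. The retinaldehyde dehydrogenase gene aldh1a3, which makes retinoic acid, was at 332, 98.9 and 106 CPM, against 13.4, 5.96 and 11.5 CPM (log2 fold change 3.85 ± 0.28, adjusted p = 1.85e-06 by edgeR). Again library 1 was the highest and the groups did not overlap.

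The next of these were lfng and gli2a, and notch3 followed further down. The glycosyltransferase gene lfng, which modifies Notch receptors, was at 292, 198 and 274 CPM in prss56 nuclei, against 21.4, 25.6 and 26.3 CPM in all other nuclei (log2 fold change 3.25 ± 0.23, adjusted p = 1.85e-06 by edgeR). The transcription factor gene gli2a was at 591, 307 and 207 CPM, against 39.6, 40.5 and 27.0 CPM (3.13 ± 0.25, adjusted p = 3.09e-06). The receptor gene notch3 was at 271, 135 and 153 CPM, against 25.4, 28.9 and 16.7 CPM (2.84 ± 0.25, adjusted p = 6.58e-06). None of these 3 genes overlapped between the groups, and all 3 were chosen as leading genes with 1 direction in all 3 libraries. Other nuclei of the Mueller glia rule held 308, 86.5 and 116 CPM of lfng, more than the prss56 nuclei in library 1.

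Among the other leading genes were her8.2, a factor of the Hairy and E(spl) family, and nkd1, an inhibitor of Wnt signals. The first was at 80.0, 89.0 and 179 CPM in prss56 nuclei, against 6.38, 18.1 and 16.8 CPM in all other nuclei, and the second was at 258, 257 and 196 CPM, against 29.7, 40.0 and 19.8 CPM. The log2 fold changes were 3.0 ± 0.29 and 2.91 ± 0.23 (adjusted p = 1.21e-05 and 2.78e-06 by edgeR). The BMP receptor gene bmpr1ba, the neurotrophic factor gene metrn and the collagen gene col9a2 rose too, with log2 fold changes of 2.64, 3.0 and 2.83. The glutamate transporter gene slc1a6 had 1012, 992 and 1153 CPM in the 3 libraries of prss56 nuclei, against 115, 221 and 217 CPM in all other nuclei. Its level in prss56 nuclei differed little between the libraries. Of the genes of this paragraph nkd1 alone was among the 10 genes that led against the Mueller glia nuclei below. Neither lfng nor notch3 was among those 10.

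The gene chrdl2, which encodes a secreted BMP antagonist, overlapped between the groups. It was at 126, 920 and 310 CPM in prss56 nuclei, against 23.1, 199 and 46.1 CPM in all other nuclei (log2 fold change 2.34 ± 0.23, adjusted p = 1.56e-05 by edgeR). Prss56 nuclei of library 1 thus had less of it than all other nuclei of library 2, although it was higher within each library. Of the genes without a symbol in the annotation, LOC119958868 and LOC119953235 rose most, with log2 fold changes of 3.49 and 3.15.

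**Figure D2:**
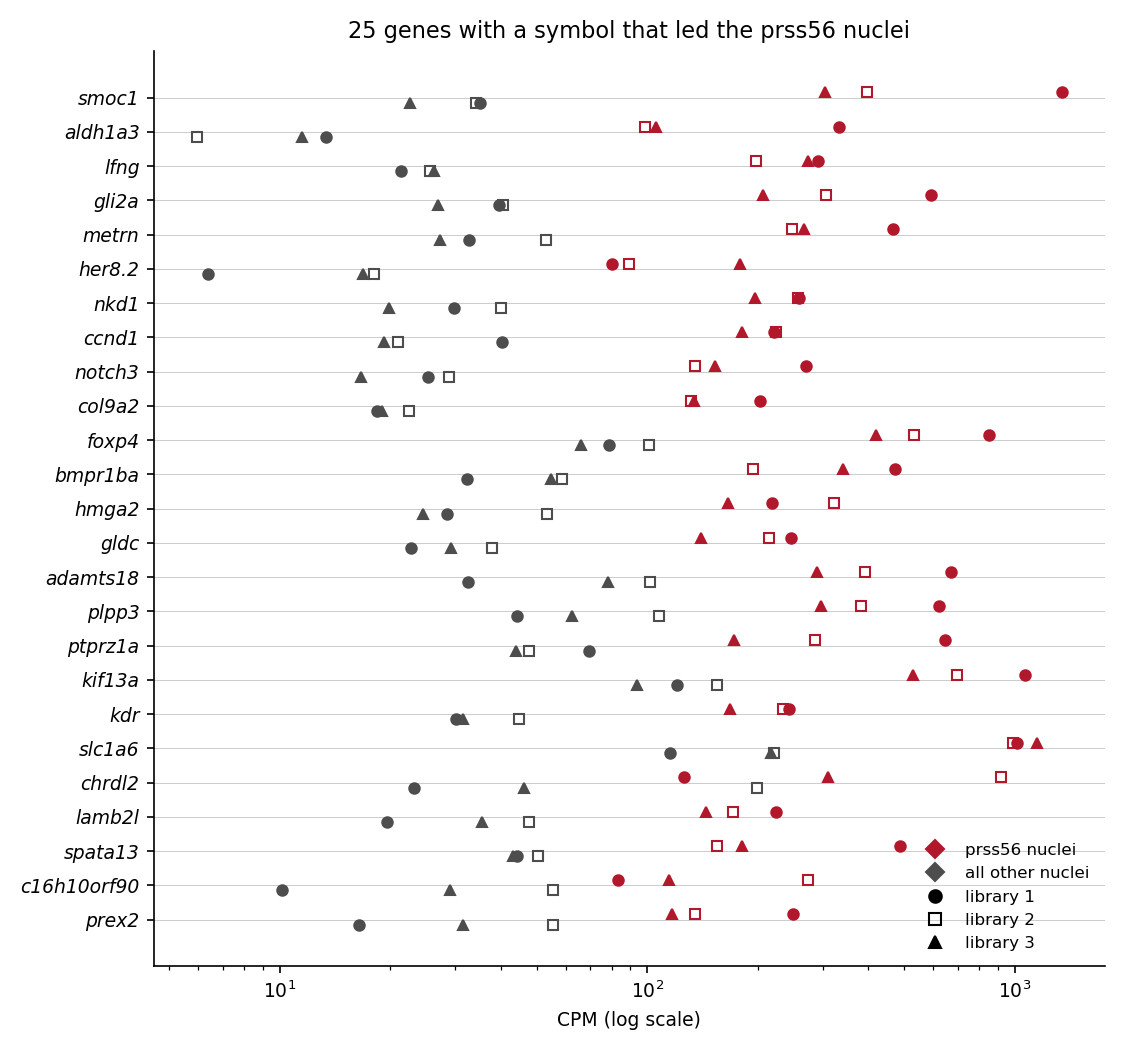
Level in counts per 1000000 UMIs (horizontal axis, log scale) of the 25 leading genes with a symbol, in prss56 nuclei (red) and all other nuclei (grey), with 1 marker shape per library. For chrdl2 the lowest value of the prss56 nuclei, 126 CPM in library 1, lies under the highest of all other nuclei, 199 CPM in library 2. The genes were chosen for a large fold change and 1 direction in all 3 libraries, so the separation of the classes is largely set by that choice.

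Among genes with a symbol and the same minimum levels in all other nuclei, ebf1a fell most. This transcription factor gene was at 27.7, 19.8 and 38.8 CPM in prss56 nuclei, against 167, 112 and 177 CPM in all other nuclei (log2 fold change -2.53 ± 0.27, adjusted p = 3.03e-05 by edgeR). The granule protein gene chgb of neuroendocrine vesicles was at 18.5, 29.7 and 53.9 CPM, against 62.4, 189 and 198 CPM (-2.22 ± 0.28, adjusted p = 0.000111). The potassium channel partner gene kcnip4, the G protein regulator gene rgs6 and the cadherin gene pcdh15b fell as well, with log2 fold changes of -2.45, -2.27 and -2.05. For kcnip4 the prss56 nuclei were at 12.3, 49.4 and 216 CPM, against 348, 297 and 421 CPM, so library 1 was the lowest. The genes without a symbol that fell most, LOC119958171 and LOC119957937, were abundant in the other nuclei of library 1 only. There they had 3.08 and 12.3 CPM in prss56 nuclei, against 387 and 696 CPM in all other nuclei, and at most 7.64 CPM in either class of libraries 2 and 3.

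Photoreceptor markers were lower in prss56 nuclei, and their RNA was more abundant in near-empty droplets than in either class of nuclei. Of 11 such markers tested, 10 were called lower and 0 higher, with a median log2 fold change of -1.25. Rhodopsin RNA (rho) was at 2144, 4601 and 4633 CPM in prss56 nuclei, against 6345, 7414 and 6921 CPM in all other nuclei (log2 fold change -1.07 ± 0.29, adjusted p = 0.0293 by edgeR), and at 37776, 14499 and 11627 CPM in near-empty droplets. Without library 1, 2 of the 11 were called lower. Prss56 nuclei with at least 2 UMIs of pde6a made up 2.22%, 25% and 28.9% in libraries 1, 2 and 3, against 21.0%, 29.6% and 28.3% of all other nuclei. Rod RNA was thus common in the prss56 nuclei of libraries 2 and 3, and the part of free RNA and of doublets in it was not tested.

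Progenitor and ciliary margin factors were higher as a list. Of 34 listed factors 19 were matched and tested, 10 were called higher and 0 lower, and their median log2 fold change was 1.45. In prss56 nuclei rx3 was at 89.2, 26.4 and 49.6 CPM, against 6.56, 5.53 and 5.76 CPM in all other nuclei (log2 fold change 3.01 ± 0.37, adjusted p = 9.48e-05 by edgeR). The groups did not overlap, and library 2 was the lowest of the prss56 nuclei. Since rx3 came with the label of these nuclei, its rise is no independent check of that label. The stem cell factor sox2 was at 102, 56.0 and 88.4 CPM, against 27.9, 17.3 and 22.7 CPM (1.72 ± 0.25, adjusted p = 0.0005).

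Cell cycle entry genes of the same list were among the largest changes. The D-type cyclin ccnd1 (chromosome 9, 194440069 to 194490116) was at 222, 224 and 181 CPM in prss56 nuclei, against 40.3, 20.9 and 19.2 CPM in all other nuclei (log2 fold change 2.90 ± 0.25, adjusted p = 4.76e-06 by edgeR). The chromatin protein gene hmga2, known from fetal stem cells, was at 218, 323 and 166 CPM, against 28.5, 53.3 and 24.5 CPM (2.63 ± 0.22, adjusted p = 3.53e-06). Both were higher in every library without overlap, and both were highest in library 2. The kinase gene cdk6, the partner of D-type cyclins, rose by a log2 fold change of 2.10, and rx1, sox9a, id1 and zic2a by 1.51, 2.05, 2.05 and 1.99.

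Other factors of the list were not called. The eye master gene pax6 was at 342, 257 and 248 CPM in prss56 nuclei, against 323, 198 and 248 CPM in all other nuclei (log2 fold change 0.02, adjusted p = 0.979 by edgeR), and the groups overlapped. For six6a the log2 fold change was 1.35 (adjusted p = 0.0813), for msi1b, an RNA-binding protein of neural stem cells, 0.80 (adjusted p = 0.0498, under the fold limit), and for meis2a -0.59.

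Of 18 listed factors of neurogenesis, 12 were matched and 10 tested, with 3 called higher, 0 lower and a median log2 fold change of 0.05. The forkhead gene foxn4, which in mice marks progenitors of amacrine and horizontal cells, was at 49.2, 9.89 and 32.3 CPM in prss56 nuclei, against 3.12, 3.73 and 3.67 CPM in all other nuclei (log2 fold change 2.96). The other called genes were olig2-l and hes6-l, with 2.48 and 1.05. The proneural gene ascl1a was at 30.8, 0 and 6.47 CPM and did not pass the test (2.25, adjusted p = 0.0596 by edgeR). The antiproliferative gene btg2-l was at 120, 188 and 250 CPM, against 140, 115 and 106 CPM, and overlapped between the groups (0.48, adjusted p = 0.366).

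Of 22 listed members of the Notch pathway 13 were matched and tested, and 4 were called higher and 0 lower. These were lfng, notch3, the target gene hey1 (log2 fold change 2.04) and the ligand gene jag1b (1.24). The median of the list was 0.29. The ligand genes dll4 and jag2b had values of -0.58 and -0.61 and were not called, and the nuclear effector rbpjb had 0.14.

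Of 79 listed members of the Wnt, FGF, BMP, hedgehog and retinoid pathways 43 were tested, and 20 were called higher and 0 lower, with a median of 0.90. In the hedgehog pathway the receptor ptch1 was called. The prss56 nuclei had 169, 221 and 149 CPM of it, against 58.7, 94.5 and 68.3 CPM in all other nuclei (log2 fold change 1.16 ± 0.21, adjusted p = 0.00319 by edgeR). Transcription of ptch1 is a known response to hedgehog signals, and the groups did not overlap. The co-receptor gene cdon was at 1034, 432 and 382 CPM, against 145, 132 and 105 CPM (2.01), and the signal transducer smo changed by 1.69.

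In the Wnt pathway the transcription factors tcf7l2, tcf7 and lef1 rose by log2 fold changes of 2.02, 2.65 and 1.80, the receptor fzd8a by 2.35, the co-receptor lrp5 by 1.05 and the secreted inhibitor sfrp5 by 2.22. The feedback gene axin2 had -0.21 and was not called. Of the FGF pathway the feedback inhibitor spry4 and the target etv4 were called with 1.76 and 2.07. In the BMP pathway bmp7b, bmpr1ba, smad1 and the target id1 were called. The transcriptional co-activator yap1 and its known target ccn1 had 1.42 and 2.19, whereas ccn2a, another known target, had -0.74 and was not called. Summed over the 50 matched genes of these pathways, prss56 nuclei had 5950, 4018 and 3426 CPM in libraries 1, 2 and 3. Nuclei of the Mueller glia rule had 4901, 3510 and 2888 CPM, and all other nuclei had 1863, 1986 and 1665 CPM. Against those glial nuclei 3 of 25 genes tested were called higher and 0 lower, with a median of 0.28.

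Of 18 extracellular matrix and integrin genes tested, 3 were called higher and 0 lower, and the median was 0.20. These were the basement membrane genes lama1 (1.96) and hspg2 (1.24) and the integrin gene itgb5 (1.11). The 18 genes summed to 1468, 1262 and 1007 CPM in prss56 nuclei, against 1123, 887 and 607 CPM in all other nuclei. Nuclei of the Mueller glia rule held more, with 1676, 1478 and 1074 CPM.

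Genes tied to eye size in other vertebrates were called in both directions. Of 18 listed, 9 besides prss56 itself were tested, with 2 called higher, 1 lower and a median of 0.38. The higher ones were zic2a and myrf, a regulator whose variants are tied to small eyes in humans. For myrf the prss56 nuclei had 89.2, 198 and 75.5 CPM, against 38.3, 81.5 and 34.6 CPM in all other nuclei (log2 fold change 1.08 ± 0.22, adjusted p = 0.00645 by edgeR), so library 3 of the prss56 nuclei lay under library 2 of the others. The lower one was rasgrf1 (-1.22, adjusted p = 0.0203). The retinal polarity gene crb1 had 0.82 (adjusted p = 0.0507) and was not called.

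**Figure D3:**
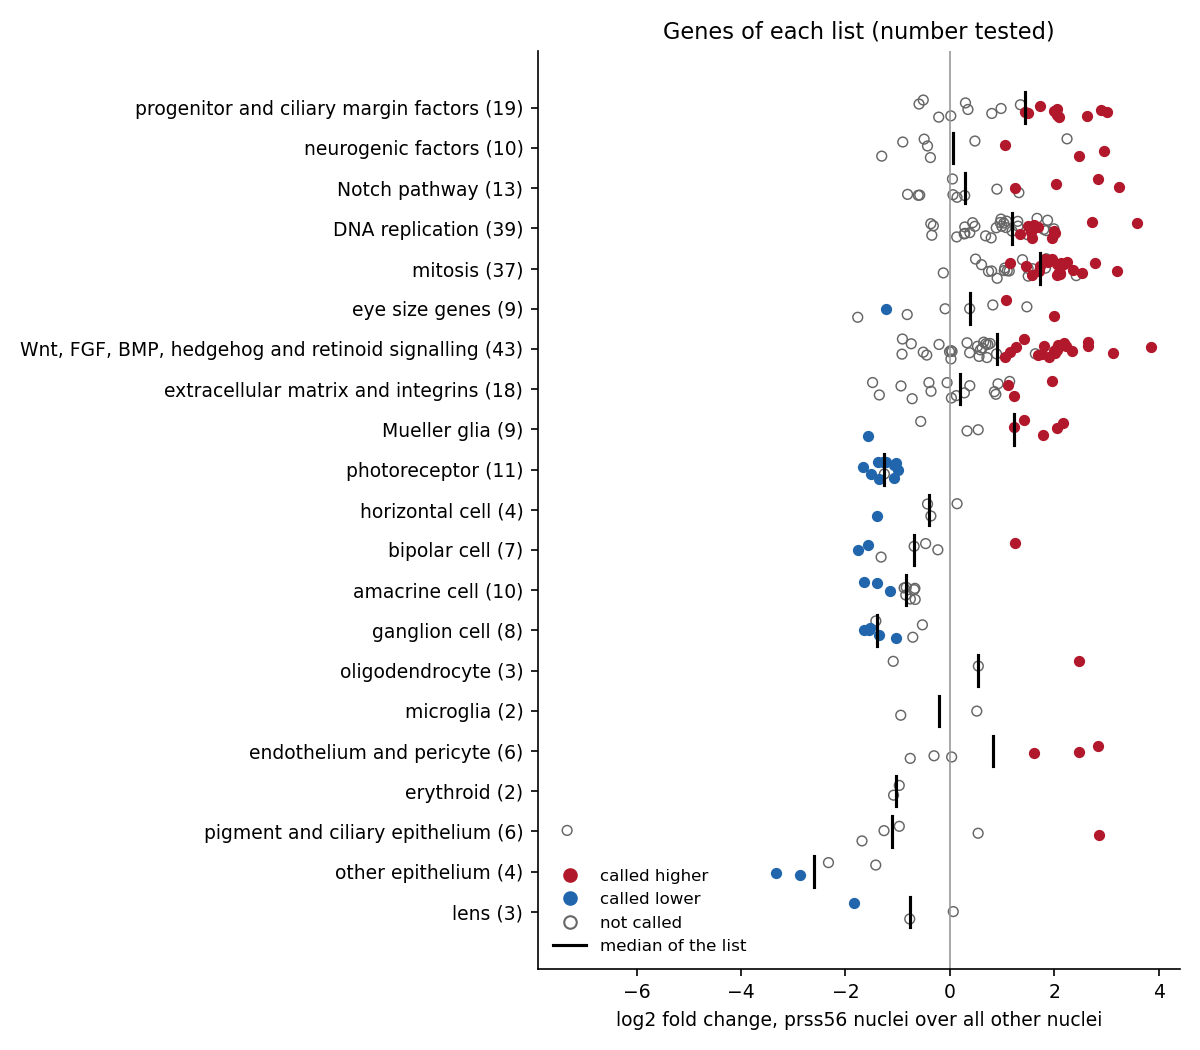
Log2 fold change (horizontal axis) of prss56 nuclei over all other nuclei for each tested gene of the lists (rows), filled where the gene was called, with a bar at the median of the list. The median was 1.73 for mitosis, 1.45 for progenitor factors and -1.25 for photoreceptor markers, beside -0.12 for all genes tested.

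Markers of Mueller glia were mostly higher. Of 9 tested, 5 were called higher, 1 lower, and the median log2 fold change was 1.24. The retinaldehyde-binding protein gene rlbp1b (chromosome 12, 16162664 to 16207539) was at 129, 468 and 291 CPM in prss56 nuclei, against 31.8, 143 and 72.5 CPM in all other nuclei (log2 fold change 1.78 ± 0.22, adjusted p = 0.0001 by edgeR). The glutamine synthetase gene glul (LOC119964998, chromosome 4, 129059308 to 129067340) was at 255, 890 and 345 CPM, against 62.3, 423 and 167 CPM (1.24 ± 0.24, adjusted p = 0.00501). Each was higher in every library, and the groups overlapped, with library 2 high in both. The water channel gene aqp4, gfap and sox9a rose by 2.16, 1.41 and 2.05 on the log2 scale. The glutamate transporter gene slc1a2, which was listed with these markers, fell by 1.56. Removing all nuclei of the Mueller glia rule from both sums, a setting chosen after the data were seen, gave 774 higher and 1232 lower genes. Of the 35 named leading genes, 25 higher and 10 lower, 35 were still called then.

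Markers of other cells were mostly called lower or not called. Ganglion cell markers were called lower in 5 of 8 tested, amacrine markers in 3 of 10, bipolar markers in 2 of 7 and horizontal cell markers in 1 of 4. Of 6 endothelial and pericyte markers 3 were called higher, kdr, flt1 and notch3, and kdrl, tek and tie1 were not, with -0.76, 0.03 and -0.30. The marker kdr was at 243, 234 and 168 CPM in prss56 nuclei, against 30.1, 44.9 and 31.5 CPM in all other nuclei. These 6 markers summed to 938, 752 and 485 CPM in prss56 nuclei, and to 2052, 1219 and 919 CPM in the nuclei of the Mueller glia rule, so they were more abundant in the glial class. The bipolar homeobox gene vsx1 rose, with 809, 165 and 220 CPM, against 193, 113 and 82.0 CPM (log2 fold change 1.25 ± 0.27, adjusted p = 0.00859 by edgeR). Of 6 pigment and ciliary epithelium markers 1 was called, wfdc1, at 55.4, 13.2 and 12.9 CPM, against 2.39, 2.86 and 4.10 CPM (2.87).

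Cell cycle genes were higher in prss56 nuclei of libraries 1 and 3. In library 2 the mitosis genes together rose less, and the replication genes together were not higher. Of 37 mitosis genes tested 20 were called higher and 0 lower, with a median log2 fold change of 1.73, and of 39 DNA replication genes 11 were called higher and 0 lower, with a median of 1.19. Of the 39 replication genes 38, 14 and 35 had higher values in prss56 nuclei than in all other nuclei of libraries 1, 2 and 3, and of the 37 mitosis genes 36, 23 and 37. In library 2, of the 11 called replication genes 4 were higher, and of the 20 called mitosis genes 15. Summed over 40 matched replication genes the levels were 2815, 808 and 1759 CPM in prss56 nuclei, against 931, 837 and 819 CPM in all other nuclei, and over 38 matched mitosis genes 2470, 597 and 1848 CPM, against 591, 444 and 460 CPM. Without library 2, 23 replication genes and 25 mitosis genes were called, without library 1 5 and 15, and without library 3 8 and 11.

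The proliferation marker mki67-l (LOC119950706, chromosome 16, 42041813 to 42107928) was at 212, 6.59 and 190 CPM in prss56 nuclei, against 51.6, 9.56 and 18.6 CPM in all other nuclei (log2 fold change 2.13 ± 0.39, adjusted p = 0.00322 by edgeR). Library 2 was lower than its own other nuclei. The topoisomerase gene top2a was at 320, 26.4 and 209 CPM, against 46.2, 11.2 and 21.4 CPM (2.54 ± 0.30, adjusted p = 8.52e-05), and was higher in every library. The replication clamp gene pcna (chromosome 26, 19238474 to 19246201) was at 89.2, 29.7 and 88.4 CPM, against 28.9, 19.0 and 24.7 CPM (1.34 ± 0.29, adjusted p = 0.00891). Near-empty droplets held 77.4, 52.5 and 40.3 CPM of pcna, above all other nuclei in every library and above the prss56 nuclei in library 2. Of mki67-l they held 70.2, 4.33 and 10.0 CPM, above all other nuclei in library 1 only. The DNA methylation partner gene uhrf1 was at 209, 0 and 110 CPM, against 16.1, 1.55 and 5.33 CPM (3.58 ± 0.41, adjusted p = 6.48e-05), and its prss56 nuclei of library 2 held no UMI of it.

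At least 1 UMI of mki67-l or pcna was found in 21 of 45, 10 of 52 and 27 of 83 prss56 nuclei. These are 46.7% (exact 95% interval 31.7 to 62.1), 19.2% (9.63 to 32.5) and 32.5% (22.6 to 43.7) in libraries 1, 2 and 3, against 15.8%, 8.76% and 10.1% of all other nuclei. Their mean was 32.8% ± 13.7 (SD, n = 3). Of the 10 nuclei of library 2, 9 held pcna, 1 held mki67-l and 0 held both. The part of free RNA in these shares was not tested. In the nuclei of the Mueller glia rule the shares were 22.4%, 15.0% and 15.7%, and in rod-like nuclei, which should not divide, they were 15.0%, 11.8% and 12.8%. Nuclei with at least 2 UMIs of the amacrine gene gad2 had 16.7%, 21.1% and 15.2% at median depths of 6728, 7788 and 5504 UMIs. In library 2 the share of prss56 nuclei was below that of these deeper gad2 nuclei before thinning.

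After thinning to 1000 UMIs the shares of prss56 nuclei were 17.8% (8 of 45, exact 95% interval 8.00 to 32.1), 5.77% (3 of 52, 1.21 to 15.9) and 9.76% (8 of 82, 4.31 to 18.3), since 1 nucleus of library 3 was too shallow. All other nuclei had 5.81%, 2.71% and 4.09%, with 0, 831 and 1953 shallower nuclei left out, rod-like nuclei had 4.83%, 2.29% and 2.93%, and gad2 nuclei had 3.37%, 3.95% and 2.17%. Nuclei of the Mueller glia rule had 5.17%, 1.84% and 3.21%, with exact intervals that reached 14.4%, 3.96% and 5.67%. The prss56 intervals of libraries 1 and 3 lay above the shares of all these classes in their own library, and that of library 2 held them. The intervals of the glial nuclei overlapped those of the prss56 nuclei in all 3 libraries. In library 3 the exact interval of all other nuclei, which reached 4.54%, overlapped that of the prss56 nuclei. Against the gad2 nuclei of library 2 thinning turned the order, with 5.77% in prss56 nuclei. Thinned shares of mki67-l alone were 15.6%, 1.92% and 8.54% in prss56 nuclei, against 3.61%, 0.734% and 1.68%, and those of pcna alone were 4.44%, 3.85% and 2.44%, against 2.56%, 1.98% and 2.57%. In library 3 thinning thus turned the order of the pcna share, which with all UMIs was 22.9% in prss56 nuclei, against 6.79% in all other nuclei. The thinned share rests on 2 of 82 prss56 nuclei, and its exact interval, 0.297 to 8.53, held that of all other nuclei. This turn is therefore too small to rank the 2 classes. With at least 2 UMIs of the 2 genes together the shares were 35.6%, 1.92% and 20.5%, against 5.39%, 1.28% and 1.94%.

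**Figure D4:**
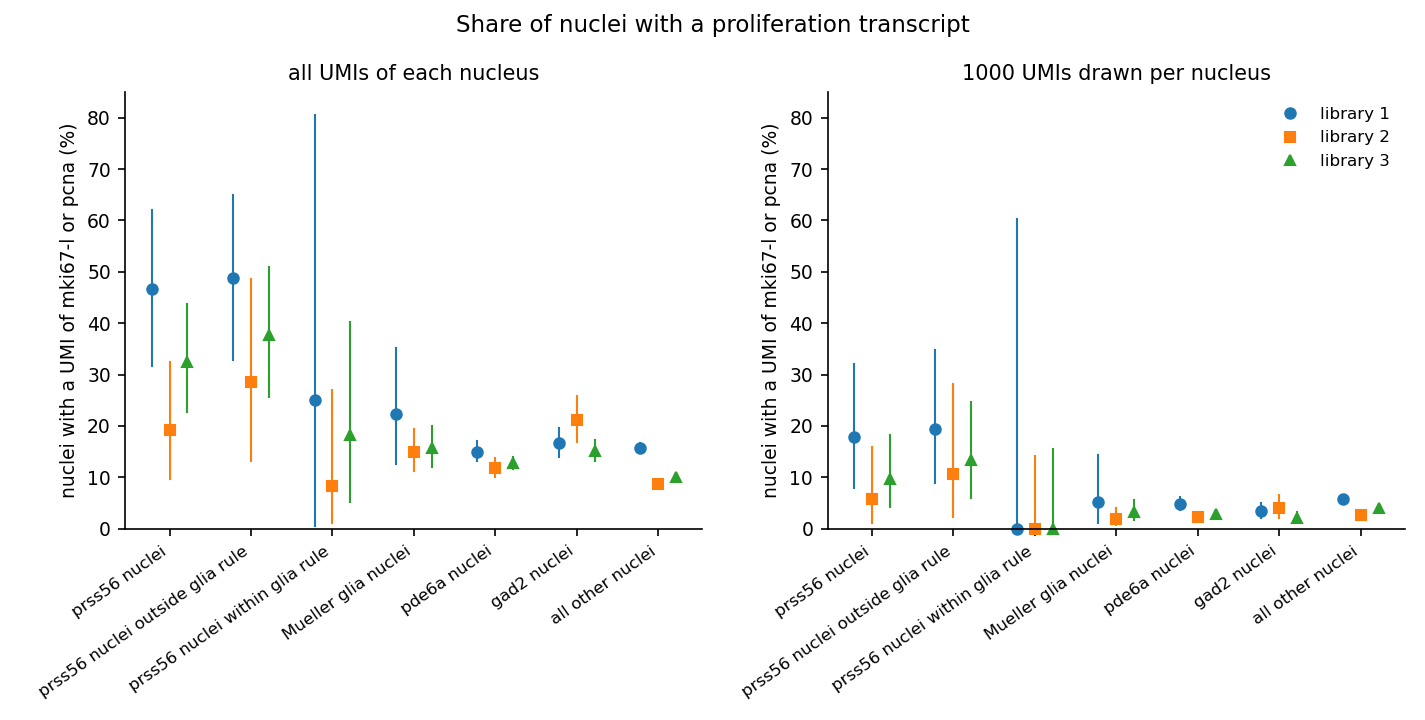
Share of nuclei (vertical axes, percent) with at least 1 UMI of mki67-l or pcna in 7 classes of nuclei and 3 libraries, from all UMIs on the left and after thinning to 1000 UMIs on the right, with exact 95% intervals as bars. With all UMIs the prss56 nuclei have 46.7%, 19.2% and 32.5%, and after thinning 17.8%, 5.77% and 9.76%.

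The nuclei differed among themselves along the glial markers. The 4, 24 and 22 prss56 nuclei that met the Mueller glia rule are described beside the 41, 28 and 61 that did not, without a test. Outside the rule smoc1 was at 1575, 802 and 420 CPM, and within it at 20.5, 140 and 65.8 CPM. The cyclin ccnd1 was at 257, 478 and 234 CPM outside and at 20.5, 64.5 and 72.4 CPM within, and rx3 was at 105, 59.7 and 60.9 CPM outside and at 0, 5.37 and 26.3 CPM within. These 3 genes were thus higher outside the rule in every library. The 19 matched progenitor factors together differed less, with 5776, 4990 and 4322 CPM outside and 5318, 3637 and 3745 CPM within, and pax6 was at 337, 358 and 263 CPM outside and at 368, 193 and 217 CPM within. The Notch modifier lfng was shared by both, with 301, 350 and 298 CPM outside and 245, 102 and 224 CPM within, as was aldh1a3, with 355, 136 and 64.1 CPM outside and 205, 75.2 and 191 CPM within.

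The level of prss56 was 205, 580 and 658 CPM within the rule and 916, 1263 and 943 CPM outside it. Their median depths were 11222, 6853 and 5623 UMIs within and 5384, 3609 and 3418 UMIs outside, and a floor of 2 UMIs gives deeper nuclei a lower CPM by construction. The proliferation marker mki67-l was at 0, 0 and 52.7 CPM within the rule and at 250, 17.1 and 257 CPM outside it. After thinning, 0 of 4, 0 of 24 and 0 of 22 nuclei within the rule had a UMI of mki67-l or pcna. The exact intervals of these shares reached 60.2%, 14.2% and 15.4%. Outside the rule 8 of 41, 3 of 28 and 8 of 60 nuclei had such a UMI (19.5%, 10.7% and 13.3%). With at least 2 UMIs of both genes together and no thinning, the shares outside the rule were 39.0%, 3.57% and 26.2%, so library 2 was the lowest there too. The 9 glial markers summed to 2598, 2423 and 2093 CPM within the rule, to 416, 640 and 709 CPM outside it, and to 4257, 3201 and 2199 CPM in the other nuclei of that rule. These sums include rlbp1b and glul, which set the rule, so their order within and outside it is largely fixed by that choice. Within the rule rlbp1b was at 327, 698 and 527 CPM and glul at 1473, 1332 and 717 CPM.

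**Figure D5:**
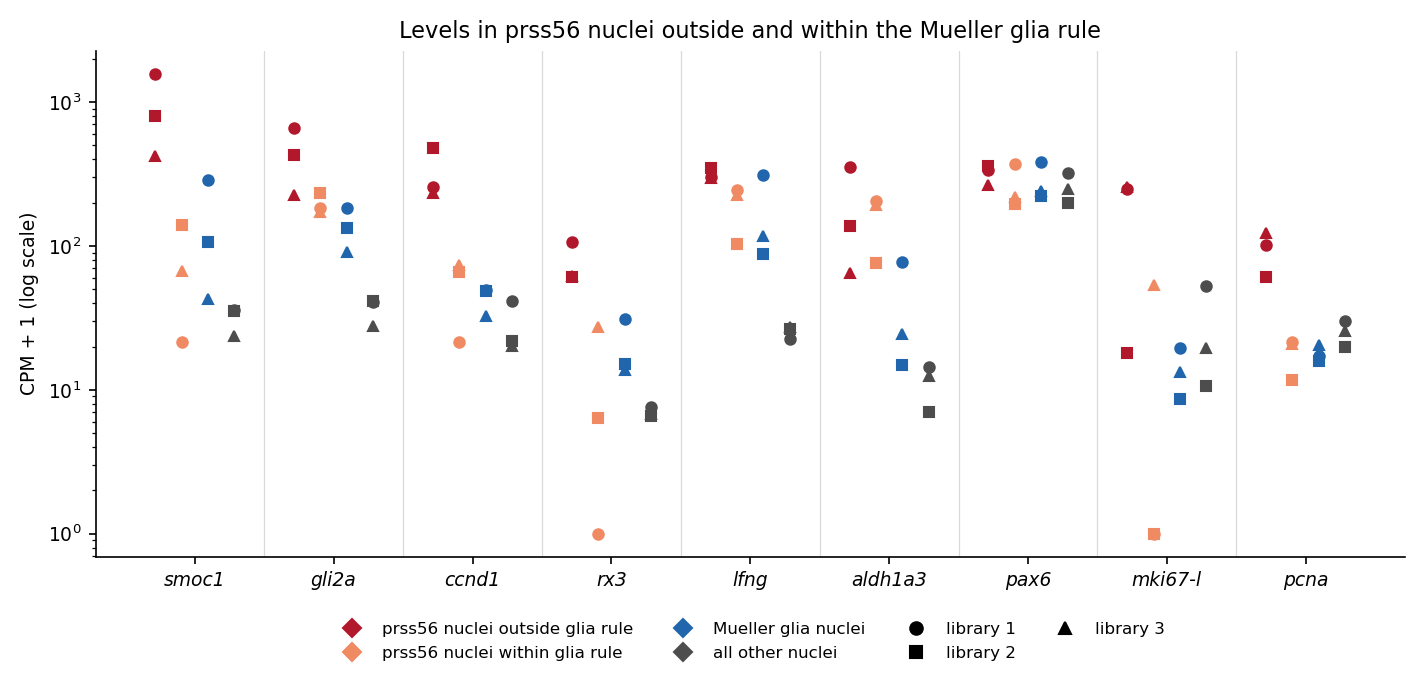
Level in counts per 1000000 UMIs plus 1 (log scale) of 9 genes in prss56 nuclei outside the Mueller glia rule, prss56 nuclei within it, other nuclei of that rule and all other nuclei, with 1 point per library. Smoc1 lies at 1575, 802 and 420 CPM outside the rule and at 20.5, 140 and 65.8 CPM within it, and lfng lies at 301, 350 and 298 CPM outside and 245, 102 and 224 CPM within.

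The 21, 10 and 27 nuclei with a UMI of mki67-l or pcna were also set against the other 24, 42 and 56 prss56 nuclei. Their median depths were 7834, 5988 and 7017 UMIs, against 4098, 4630 and 2729, so the split also separates deep from shallow nuclei. Of 5202 genes tested by edgeR 37 were called higher (0.711%) and 33 lower (0.634%), together 1.35%. The split was made on mki67-l and pcna, genes of the mitosis and replication lists, so a rise of other cell cycle genes is largely built into it. Of 9 mitosis genes tested 5 were called higher. The centromere gene cenpf was at 240, 101 and 234 CPM, against 7.26, 16.4 and 12.4 CPM (log2 fold change 3.81 ± 0.47, adjusted p = 0.00208), and top2a at 502, 101 and 391 CPM, against 72.6, 8.20 and 41.4 CPM (3.06 ± 0.35, adjusted p = 0.00157). Both were higher in every library with no overlap of the groups.

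The leading gene by the same minimum levels was the ribosomal protein gene rpl15. It was at 950, 488 and 836 CPM in the prss56 nuclei with mki67-l or pcna, against 327, 279 and 360 CPM in the others (log2 fold change 1.20 ± 0.24, adjusted p = 0.0356 by edgeR), and rpl38, rpl24 and rpl10a had 1.14, 1.1 and 1.05. Of 5 Mueller glia markers tested 2 were called lower and 0 higher. For glul the levels were 101, 319 and 180 CPM, against 465, 1029 and 497 CPM (-1.76 ± 0.26, adjusted p = 0.00527), and for rlbp1b 48.0, 134 and 162 CPM, against 240, 549 and 410 CPM (-1.79 ± 0.30, adjusted p = 0.0154). Within each library both were lower in the nuclei with mki67-l or pcna. Without library 1 or without library 3 edgeR called 0 genes here (356 and 473 had an unadjusted p under 0.05), and without library 2 it called 130 higher and 179 lower. DESeq2 called 5 and 16, the split on thinned counts gave 57 and 113, and without the nuclei of the Mueller glia rule, a setting chosen after the data were seen, 3 and 2 were called.

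The prss56 nuclei were set next against the nuclei of the Mueller glia rule, which 50 of the 180 meet themselves. There were 58, 327 and 345 such nuclei with under 2 UMIs of prss56, and edgeR called 43 of 8005 genes higher in prss56 nuclei (0.537%) and 27 lower (0.337%), together 0.874%. In prss56 nuclei aldh1a3 was at 332, 98.9 and 106 CPM, against 76.5, 13.8 and 23.5 CPM in the glial nuclei (log2 fold change 2.27 ± 0.26, adjusted p = 0.0044). The cyclin ccnd1 was at 222, 224 and 181 CPM, against 48.7, 47.5 and 31.7 CPM (2.26 ± 0.22, adjusted p = 0.00318), and smoc1 at 1341, 396 and 304 CPM, against 287, 105 and 41.6 CPM (2.25 ± 0.23, adjusted p = 0.00318). All 3 genes were above their level in glial nuclei in every library, and none of them overlapped between the groups. They led the genes with a symbol and 1 direction in all 3 libraries, so this separation is largely set by that choice. Others that rose were foxp4 (1.75), nkd1 (1.49), the cadherin gene celsr2 (1.41) and gli2a (1.30).

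Of the mitosis genes 3 of 7 tested were called higher against these glial nuclei, top2a (3.48), knl1 (2.46) and cenpf (2.41), and of the replication genes 2 of 14, pcna (1.84) and pole (1.67). Of the progenitor factors 1 of 16 was called, ccnd1, and of 5 further glial markers 0, with a median of -1.23. Of 11 Notch pathway genes tested 0 were called, with a median of 0.06. The genes rlbp1b and glul chose the glial nuclei and took part in no test. Lower in prss56 nuclei was flt1, a receptor of vascular growth factors, with 415, 359 and 153 CPM, against 1187, 920 and 656 CPM (-1.72 ± 0.22, adjusted p = 0.00605 by edgeR), and the gap junction gene gja1b with -1.38. Without library 3 edgeR called 0 genes (582 had an unadjusted p under 0.05), and without library 2 it called 202 higher and 200 lower. Without the nuclei of highest doublet score 17 and 9 were called.

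Nuclei with at least 2 UMIs of mki67-l and under 2 of prss56 were the last class compared, with 203, 19 and 86 nuclei. EdgeR called 161 of 7529 genes higher in prss56 nuclei (2.14%) and 193 lower (2.56%), together 4.7%. Of 16 progenitor factors tested 3 were called higher and 0 lower, and of 7 Mueller glia markers 3 were called higher and 1 lower, slc1a2 (-2.48). In prss56 nuclei aldh1a3 was at 332, 98.9 and 106 CPM, against 27.9, 0 and 16.7 CPM in the other mki67-l nuclei (log2 fold change 3.32 ± 0.41, adjusted p = 0.00499), and slc1a6 at 1012, 992 and 1153 CPM, against 92.1, 15.9 and 329 CPM (3.18 ± 0.57, adjusted p = 0.0184). For both genes the groups did not overlap, and both were chosen as leading genes with 1 direction in all 3 libraries. With 20.1, 0 and 8.33 CPM in the other mki67-l nuclei, rx3 was higher in prss56 nuclei as well (2.28, adjusted p = 0.0235), as were rlbp1b (2.81), smoc1 (2.56), gli2a (2.11) and ptch1 (1.93).

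The genes lower in prss56 nuclei than in these other mki67-l nuclei included bipolar cell markers. The channel gene trpm1a of ON bipolar cells was at 15.4, 105 and 71.1 CPM in prss56 nuclei, against 764, 1193 and 487 CPM (log2 fold change -3.86 ± 0.49, adjusted p = 0.00552 by edgeR), while all other nuclei together had 137, 181 and 163 CPM. Of 7 bipolar markers 3 were called lower, trpm1a, prkca-l (-2.21) and gnao1b (-1.78), and 0 higher. The kinase gene prkd3 was at 314, 267 and 138 CPM, against 3394, 5129 and 1603 CPM (-3.87). RNA of mki67-l outside the prss56 nuclei was therefore found together with high levels of these genes, in all 3 libraries. Of the mitosis list 0 of 23 genes tested were called by edgeR, with a median of -0.67, and of the replication list 0 of 25 were higher and 1 lower, rrm1 (-1.47). Of the 23 mitosis genes only 2 and 1 had higher values in prss56 nuclei of libraries 1 and 3, and 14 in library 2. The other nuclei were chosen by mki67-l, itself a gene of the mitosis list. Of the 25 replication genes 16, 11 and 11 were higher in prss56 nuclei of libraries 1, 2 and 3. Without library 1 edgeR called 1 gene higher and 29 lower, and without library 2 it called 3 and 6.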

How the data were processed

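Nuclei of 3 retinas were profiled with the 10x Genomics 3' v3.1 chemistry. The authors aligned the reads to assembly sScyCan1.1 with STARsolo (STAR 2.7.10a) and deposited, per library, raw unfiltered UMI counts of 29017 features from unique reads over whole genes, introns included. Introns raise the counts of long genes, so levels were compared between classes and not between genes. Whole libraries held 73310348, 50691314 and 71366924 UMIs (libraries 1, 2 and 3). As in the study's methods, barcodes with at least 200 features were kept with UMIs between 1000 and 20000 and features between 500 and 5500 (library 1), 500 and 24000 and 500 and 6500 (library 2), and 750 and 20000 and 300 and 7000 (library 3), with under 10% of 37 mitochondrial features, which then took part in no sum. Clusters that the study removed by hand were not removed here.

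The deposited counts were summed per library and class, and tested in R 4.3.3 with edgeR 4.0.16 (TMM, filterByExpr, quasi-likelihood test) with the library as a block, since both sums of a library come from the same animal. SEs were taken as the size of the log2 fold change over the root of the F statistic. The 6 sums of a comparison hold 3 animals. Prss56, and any gene that chose a class, took part in no test. Alternatives were DESeq2 1.42.0, its size factors, no filter, no block, each library left out, rules of at least 1 or 3 UMIs of prss56, other limits and doublets left out. Scrublet (scanpy 1.11.5, Python 3.11.15) marked 1 nucleus at its automatic threshold and so did not work, and the 4% with the highest score per library were used as doublets in its place. Free RNA was not subtracted. Shares have exact Clopper-Pearson intervals (scipy 1.17.1), and numpy 2.4.6 thinned the nuclei.

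The leading genes were the 25 with the largest and the 10 with the lowest log2 fold change (10 and 10 in the other comparisons) among called genes with a symbol, 1 direction in all 3 libraries, a mean of at least 100 CPM and at least 20 UMIs per library in the higher class. Besides these the gene lists were counted, of which 282 of 430 members were matched by symbol or by the study's own symbols for features without one. The members and the lists were chosen with earlier results of these data known. The edgeR step was tested on simulated data. Names and positions come from RefSeq's annotation of sScyCan1.1. Genes with near-identical copies, overlapping genes and antisense genes could not be told apart further, and reads shared between copies were left out with the unique-read setting.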

Additional observations from a re-analysis of the deposited data

Results flagged for a closer look

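Barcodes above the upper limits on UMIs or features took part in no main comparison of the report, and prss56 RNA was common among them. At least 2 UMIs of prss56 were found in 26 of 263 such barcodes in library 1, 16 of 177 in library 2 and 21 of 201 in library 3, which are 9.89%, 9.04% and 10.4%, against 0.743%, 1.18% and 0.817% of the nuclei within the limits. They were flagged as data left out of the main comparisons. Among near-empty droplets 0 of 34947, 1 of 26769 and 1 of 32186 had at least 2 UMIs of prss56. The barcodes above the upper limits with at least 2 UMIs of prss56 had median totals of 28986, 40101 and 31304 UMIs, so 2 UMIs are a smaller part of their RNA. Their prss56 level was 178, 74.7 and 110 CPM, against 809, 844 and 849 CPM in the prss56 nuclei within the limits. In library 1 they held 859 CPM of smoc1, 485 CPM of gli2a and 458 CPM of mki67-l, and in libraries 2 and 3 they held 77.6 and 41.9 CPM of smoc1. The part of doublets in these barcodes was not tested.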

How the results depend on the processing

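The mean share of prss56 nuclei was 0.606% with at least 3 UMIs of prss56, 2.24% with at least 1, 1.20% with barcodes above the upper limits kept (chosen after the data were seen) and 0.780% to 0.996% with 1 library left out. The mean share with mki67-l or pcna was 11.1% after thinning and 25.9% to 39.6% with 1 library left out. No leading gene turned its direction under any setting run. Thinning turned the order of the pcna share in library 3 (2.44% in prss56 nuclei, 2 of 82, against 2.57% in all other nuclei). It also turned the order of the share with mki67-l or pcna against gad2 nuclei in library 2 (5.77%, 3 of 52, against 3.95%). Both turns rest on few prss56 nuclei. Calls below are given as higher and lower.

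Both sums of a library come from the same animal. Without that pairing (no block), edgeR called 91 and 3 genes against all other nuclei, and 0 and 0 against the Mueller glia nuclei, the other mki67-l nuclei and within the prss56 nuclei (402, 721 and 317 had an unadjusted p under 0.05).

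Against all other nuclei DESeq2 called 565 and 354, the rule of 1 UMI gave 315 and 54, leaving out the Mueller glia nuclei 774 and 1232, and keeping barcodes above the upper limits 0 and 2. The last 2 settings were chosen after the data were seen. With 1 library left out the counts were 475 to 650 and 311 to 1168, lowest without library 1. All 35 leading genes were called without library 1, 2 or 3.

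Against the Mueller glia nuclei no filter gave 185 and 182, the rule of 1 UMI 10 and 7, leaving out doublets 17 and 9, DESeq2 38 and 35, and leaving out 1 library 0 to 202 and 0 to 200 (0 and 0 without library 3, where 582 had an unadjusted p under 0.05). Against the other mki67-l nuclei no filter gave 331 and 473, leaving out doublets 104 higher, and leaving out 1 library 1 to 167 and 6 to 230 (1 and 29 without library 1, 3 and 6 without library 2).

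Within the prss56 nuclei DESeq2 called 5 and 16, no filter gave 86 and 101, the rule of 1 UMI 1 and 0, leaving out doublets 51 lower, the split on thinned counts 57 and 113, and leaving out the nuclei of the Mueller glia rule (chosen after the data were seen) 3 and 2. Leaving out 1 library gave 0 to 130 and 0 to 179 (0 and 0 without library 1 or 3). The causes of these moves were not tested. The number of nuclei limits what some classes can show, with 4 to 24 prss56 nuclei per library within the Mueller glia rule and 19 other mki67-l nuclei in library 2.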
